A study of Mus musculus with 4 samples.

Results

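The 9 genes described here were Nodal, Gdf3, Tdgf1, Acvr2b, Lefty1, Lefty2, Foxh1, Skil and Smad7, components and targets of the Nodal autoregulatory loop. They were chosen by name, and all 9 were found among the 37620 Ensembl gene identifiers of the count tables and among the 14263 genes tested, those reaching 1 CPM in any sample. CPM gives the read pairs counted on a gene relative to the TMM-scaled library size. RNA-seq of 4 samples was analysed, with 1 sample per condition and no replicates. Of these, 3 came from mouse embryonic stem cells (mESCs) of the R1 line after 2 days in serum-containing medium without feeders or LIF. The sample called 2i-L here (2i in its label) received 3 µM CHIR99021, which inhibits GSK3, and 1 µM PD0325901, which inhibits MEK. The 2iJ sample (2i-Jaki) received a JAK inhibitor at 2 µM in addition. The 2iJ+B-A sample (2i-Jaki-BMP-Alk5i) received both 2i agents, the JAK inhibitor, BMP4 at 10 ng/ml and ALK5 inhibitor II at 10 µM. The sample labelled TSC came from trophoblast stem cells (TSCs) of the F4 line, also labelled day 2, for which no treatment is labelled, so that cell line, medium and cell type cannot be told apart in comparisons with it. BMP4 and the ALK5 inhibitor were added together, and their separate contributions cannot be told apart either.

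Nodal is a secreted ligand of the TGF-β family that signals through activin receptors and the co-receptor encoded by Tdgf1 (Cripto), leading to phosphorylation of Smad2 and Smad3. These bind DNA with Smad4 and partners such as Foxh1 and raise transcription of Nodal itself and of its antagonists Lefty1 and Lefty2, so that the loop contains both positive and negative feedback. ALK5 is the type I receptor for TGF-β, and small-molecule ALK5 inhibitors are used to block Activin/Nodal signaling, which mESCs sustain through ligands they make themselves.

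Lefty1 and Lefty2 are neighbours on chromosome 1, and how far their reads can be separated depends on their sequences. In NCBIM37, Lefty2 lies at chr1:182823239-182829234 and Lefty1 at chr1:182865153-182868531, both on the plus strand, with 35918 bases between them. Their coding sequences are 1107 bases long each and were identical at 1017 positions (91.87%), and the encoded proteins, of 368 residues each, were identical at 331 (89.95%). The longest stretch of coding sequence that is unbroken in the genome and identical in both genes has 137 bases, and a read pair falling wholly within it cannot be assigned to either gene.

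The 60 coding bases in which they differed most held 18 differences, shown in capitals, at chr1:182865274-182865333 in Lefty1 and chr1:182823348-182823407 in Lefty2. They are shown as the kind of sequence by which reads of the 2 genes are told apart.

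Lefty1: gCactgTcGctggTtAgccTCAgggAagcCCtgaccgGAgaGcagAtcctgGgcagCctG
Lefty2: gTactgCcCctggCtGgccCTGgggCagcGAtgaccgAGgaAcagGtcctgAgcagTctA

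Reads were 126 bases long, and STAR counts only pairs that map to 1 place. Of the 126-base windows of the transcripts, 12 of 1495 (0.803%) of Lefty1 and 12 of 2348 (0.511%) of Lefty2 were found again elsewhere in the genome. The corresponding share was 97 of 1800 windows (5.39%) for Tdgf1, all matching chr16:3730371-3732656, where no gene is annotated. For the other 6 genes it was 0. With 50-base windows the shares were 17.7% for Lefty1, 14.3% for Lefty2, 27.5% for Tdgf1 and 2.7% for Gdf3. In the gencode vM1 annotation of NCBIM37, which may not be the one used for counting, none of the 9 genes overlapped another gene on either strand. Foxh1 nevertheless had fewer unstranded counts than counts on its own strand in all 4 samples (1215 against 1343 in 2i-L), and whether the annotation used for counting holds an overlapping gene was not tested. Since Lefty1 and Lefty2 share sequence, their summed counts are given as well.

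Counts on genes ranged from 33913984 to 36964392 per sample, so that 3 counts, taken as the smallest detectable signal, corresponded to 0.0799 to 0.0902 CPM. All 7 mESC markers were at 1 CPM or more in the 3 mESC samples, and all 6 TSC markers found were so in the TSC sample, where Pou5f1 was at 1.34 CPM against 885 CPM in 2iJ. The 1 CPM level did not separate the cell types, since 5 of the 6 TSC markers also reached it in each mESC sample. In TSCs 5 of the 7 mESC markers reached it, among them Esrrb at 248 CPM, Sox2 at 154 and Zfp42 at 123. The TSC markers summed to 22.0, 28.7, 232 and 1022 CPM in 2i-L, 2iJ, 2iJ+B-A and TSCs, although Elf5 had only 5 counts in 2iJ+B-A. The summed level of the mESC markers was 3480, 3075, 2131 and 528 CPM in the same order, and that of 6 primitive endoderm markers 5.59, 5.85, 24.9 and 35.0 CPM. The 8 fibroblast markers summed to between 7.69 and 48.0 CPM, and 4 of them (Col1a2, Col3a1, Dcn and Lum) were at or under 3 counts in TSCs. The 5 primitive streak and mesoderm markers summed to 4.54, 4.92, 1.73 and 3.85 CPM and the 3 markers of primed epiblast, nearly all of it Otx2, to 29.6, 45.45, 26.5 and 0.256 CPM. The part of these shifts in the results was not tested, and in bulk RNA fewer cells of a type and less RNA per cell cannot be told apart.

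Of the ligands, Nodal (chr10:60880720-60888086, plus strand) had 2973, 4306, 1730 and 235 counts in 2i-L, 2iJ, 2iJ+B-A and TSCs respectively, or 89.4, 125, 46.05 and 6.69 CPM. This order of the samples is kept wherever 4 values follow one another. Nodal was highest in 2iJ and stayed well above the detection floor in every sample. Gdf3 (chr6:122555421-122560105, minus strand), a related TGF-β family ligand expressed in mESCs, had 2217, 2728, 1866 and 2 counts in the same order, or 66.7, 79.4, 49.7 and 0.057 CPM. It was present in all mESC samples and under the detection floor in TSCs.

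The co-receptor gene Tdgf1 (chr9:110842114-110848662, minus strand) had 12000, 7102, 2143 and 12 counts, or 361, 207, 57.0 and 0.342 CPM, a level that was lower in each successive sample. Acvr2b (chr9:119311562-119342619, plus strand), a type II activin receptor that binds Nodal, had 506, 506, 369 and 458 counts, or 15.2, 14.7, 9.82 and 13.05 CPM. Its lowest level was that in 2iJ+B-A, and its 4 levels lay within 2-fold of each other.

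The antagonist Lefty1 had 6087, 4387, 14 and 15 counts, or 183, 128, 0.373 and 0.427 CPM. Lefty2 had 14296, 9088, 0 and 16 counts, or 429.9, 265, 0 and 0.456 CPM. Their sum was 20383, 13475, 14 and 31 counts, or 613, 392, 0.373 and 0.883 CPM. Both antagonists had 4387 or more counts in 2i-L and 2iJ and at most 16 in the other samples.

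Foxh1 (chr15:76498714-76500378, minus strand), the forkhead partner of Smad2 and Smad3, had 1343, 2088, 1418 and 1410 counts, or 40.4, 60.8, 37.7 and 40.2 CPM. Skil (SnoN, chr3:30993980-31021499, plus strand), a repressor of Smad2/3-driven transcription that is itself a target of the pathway, had 6387, 6298, 1433 and 3465 counts, or 192, 183, 38.1 and 98.7 CPM. Smad7, the inhibitory Smad that acts at the receptors, had 1472, 1456, 1431 and 2659 counts, or 44.3, 42.4, 38.1 and 75.7 CPM. Foxh1 stood highest in 2iJ, Skil lowest in 2iJ+B-A and Smad7 highest in TSCs.

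**Figure D1:**
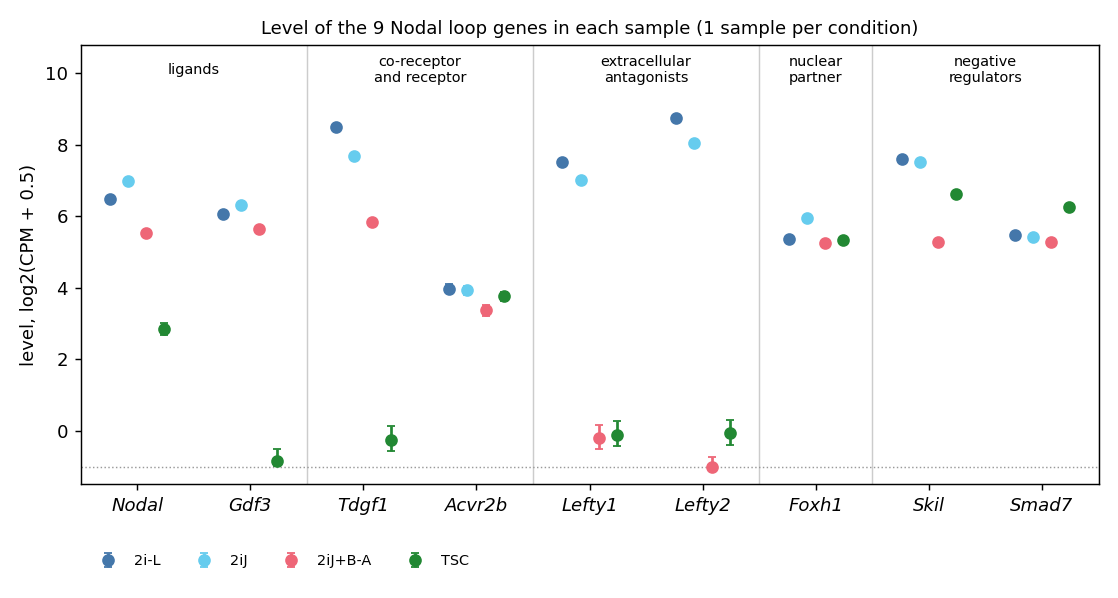
Level of each of the 9 genes, as log2(CPM + 0.5), in the 4 samples (colours), grouped by role, with exact Poisson intervals of 95% as bars that cover counting error only and are mostly smaller than the points. The dotted line is a level of 0 CPM. Lefty1 and Lefty2 lie on or near that line in 2iJ+B-A and TSCs, Gdf3 and Tdgf1 only in TSCs, while Acvr2b, Foxh1 and Smad7 stay within a narrow band.

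Levels of different genes were compared per kilobase of annotated exon. In 2i-L the order of the levels was Tdgf1 (187 CPM per kb), Lefty2 (165), Lefty1 (104), Nodal (42.7), Gdf3 (31.4), Foxh1 (30.9), Skil (19.8), Smad7 (9.79) and Acvr2b (8.68). Of the neighbours in this order, Gdf3 and Foxh1, and Smad7 and Acvr2b, had overlapping counting intervals. In 2iJ the order was the same except that Foxh1 (46.6 CPM per kb) stood above Gdf3 (37.4), and only Smad7 (9.38) and Acvr2b (8.41) overlapped. Lefty1 was at 2.44 times the per-kb level of Nodal in 2i-L and 1.21 times in 2iJ, and Lefty2 at 3.86 and 1.69 times. The antagonists thus stood above their ligand in both samples, by less in 2iJ.

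In 2iJ+B-A the order was Tdgf1 (29.6 CPM per kb), Foxh1 (28.9), Gdf3 (23.4), Nodal (22.0), Smad7 (8.43), Acvr2b (5.603), Skil (3.94), Lefty1 (0.212) and Lefty2 (0). Tdgf1 and Foxh1, and Gdf3 and Nodal, overlapped in their counting intervals. Lefty1 was at 0.00965 times the per-kb level of Nodal, so that the order of ligand and antagonist was the opposite of that in 2iJ. Skil stood at 2.02 times the per-kb level of Smad7 in 2iJ and at 0.467 times in 2iJ+B-A, which also reversed the order of these negative regulators. In TSCs Foxh1 (30.8 CPM per kb) was followed by Smad7 (16.8), Skil (10.2), Acvr2b (7.44) and Nodal (3.20), and the remaining genes were between 0.0268 and 0.243 CPM per kb, where Lefty1, Tdgf1 and Lefty2 overlapped.

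Lefty1 made up 29.86% of the summed Lefty counts in 2i-L (95% Clopper-Pearson interval 29.24 to 30.5) and 32.56% in 2iJ (31.77 to 33.36). These intervals did not overlap, although they cover counting error only. All 14 Lefty counts of 2iJ+B-A fell on Lefty1 (76.84 to 100%). Of the 31 counts in TSCs, 48.39% did (30.15 to 66.94%). The interval of 2iJ+B-A lay above those of 2i-L and 2iJ, whereas that of the TSCs overlapped both.

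The addition of the JAK inhibitor was addressed by comparing 2iJ with 2i-L. Differences are log2 ratios of CPM + 0.5 with a 95% Clopper-Pearson interval of the count share, which covers counting error and not variation between cultures, and a gene was called when it differed at least 2-fold on that scale. No p-value is given, because 1 sample per condition leaves no replicate spread, so none of the differences has a replicate check here. The paper compared more than 1 sample each of 2iJ+B-A and 2iJ for the genes of its model. Those further samples were not part of the data analysed here. None of the 9 genes was called higher or lower in 2iJ, where 1.23% of all tested genes were at least 2-fold higher and 0.918% at least 2-fold lower. The median log2 ratio of the 9 genes was -0.06, beside 0.00489 over all tested genes.

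Within that range, Tdgf1 had the lowest log2 ratio of 2iJ to 2i-L at -0.80 (interval -0.84 to -0.76), followed by Lefty2 at -0.70 (-0.74 to -0.66) and Lefty1 at -0.52 (-0.57 to -0.46). Foxh1 had the highest at 0.58 (0.49 to 0.68), followed by Nodal at 0.49 (0.42 to 0.55) and Gdf3 at 0.25 (0.17 to 0.33). The ligands and Foxh1 were thus higher and the co-receptor and both antagonists lower in 2iJ, all by less than 2-fold. The log2 ratios of Acvr2b, -0.05 (-0.22 to 0.13), and Smad7, -0.06 (-0.17 to 0.04), had intervals that included 0, and that of Skil was -0.07 (-0.12 to -0.02).

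The addition of BMP4 and the ALK5 inhibitor was addressed by comparing 2iJ+B-A with 2iJ. In 2iJ+B-A, 5 of the 9 genes were called lower, which were both Leftys, Skil, Tdgf1 and Nodal, and 0 were called higher. That is 55.6% of the 9 genes called lower, where 3.17% of all tested genes were at least 2-fold lower and 5.81% at least 2-fold higher. All 9 log2 ratios were below 0, with a median of -1.44, beside -0.00228 over all tested genes. This comparison and that of TSCs use the same 2iJ sample, so they are not independent of each other.

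Lefty2 and Lefty1 had the lowest and second lowest log2 ratios among the 14263 tested genes. With 0 counts in 2iJ+B-A, Lefty2 was at least 3314-fold lower than in 2iJ, a bound taken against 3 counts in that library. Lefty1 was 343-fold lower by CPM (log2 ratio -7.20, interval -7.51 to -6.83), and the sum of both was 1053-fold lower (-8.82, -9.13 to -8.45 on the log2 scale).

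Skil had a log2 ratio of -2.25 (interval -2.33 to -2.17) and ranked 41 from the lowest of all tested genes, and Tdgf1, at -1.85 (-1.92 to -1.78), ranked 76. Nodal, at -1.44 (-1.52 to -1.36), ranked 182. The loop genes past the threshold thus ran from the ligand itself, 2.72-fold lower by CPM, through its co-receptor, 3.63-fold lower, to the antagonists. Gdf3, at -0.67 (-0.76 to -0.59), Foxh1, at -0.68 (-0.78 to -0.58), and Acvr2b, at -0.56 (-0.75 to -0.37), were lower by less than 2-fold. Smad7 was nearest to 0, at -0.15 (-0.26 to -0.05). Both negative regulators inside the cell therefore differed in size, with Skil 4.81-fold and Smad7 1.11-fold lower by CPM. When 2i-L served as the reference, Nodal had a log2 ratio of -0.95 and was no longer called, while the other 4 genes remained past the threshold. No share of all tested genes was calculated for that reference.

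TSCs, the cell type against which the study set its treated mESCs, were compared with 2iJ. Of the 9 genes, 5 were called lower in TSCs (55.6%), which were Lefty2, Tdgf1, Gdf3, Lefty1 and Nodal, and 0 higher, where 17.6% of all tested genes were at least 2-fold lower and 19.4% at least 2-fold higher. The median log2 ratio of the 9 genes was -4.13, beside 0.00273 over all tested genes. Lefty2 was at -8.12 (interval -8.45 to -7.74), Tdgf1 at -7.94 (-8.26 to -7.56) and Lefty1 at -7.11 (-7.44 to -6.73) on the log2 scale. Gdf3, with 2 counts in TSCs, was at -7.17 (-7.30 to -6.82), and Nodal at -4.13 (-4.31 to -3.95). The ligands, the co-receptor and the antagonists among the 9 genes were thus all lower in TSCs.

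Among the 9 genes, those that act inside the cell, and the receptor Acvr2b, were nearer to their level in 2iJ. Log2 ratios of TSCs to 2iJ were -0.17 (interval -0.35 to 0.01) for Acvr2b, -0.59 (-0.69 to -0.50) for Foxh1 and -0.89 (-0.95 to -0.83) for Skil. Smad7 was the only gene of the 9 above 0, at 0.83 (0.74 to 0.92), 1.79-fold higher by CPM. Set directly against 2iJ+B-A, TSCs had lower levels of Gdf3, with 2 counts at -6.49 on the log2 scale (interval -6.63 to -6.15), Tdgf1, at -6.10 (-6.41 to -5.71), and Nodal, at -2.69 (-2.88 to -2.51). Skil was called higher, at 1.36 (1.27 to 1.45), while Smad7, at 0.98 (0.89 to 1.08), Acvr2b, at 0.39 (0.20 to 0.59), and Foxh1, at 0.09 (-0.02 to 0.19), were not called. The Leftys summed, with 31 counts in TSCs and 14 in 2iJ+B-A, were at 0.66 (0.16 to 1.11). Lefty1 alone, with 15 and 14 counts, was at 0.09 (-0.41 to 0.57), and Lefty2 had 16 and 0 counts.

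**Figure D2:**
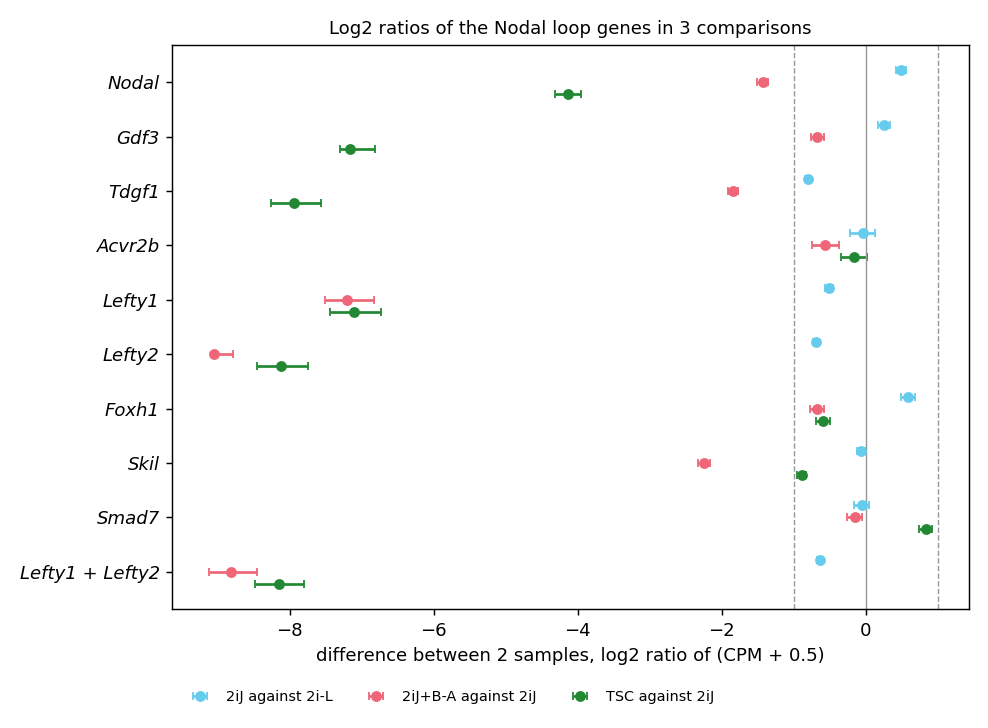
Log2 ratio of (CPM + 0.5) of each of the 9 genes and of Lefty1 + Lefty2 summed in 3 comparisons (colours), with 95% Clopper-Pearson intervals of the count share as bars. Dashed lines mark 2-fold, and Lefty2, at 0 counts in 2iJ+B-A, has no lower limit. Between 2iJ and 2i-L all points lie inside the dashed lines, in 2iJ+B-A both Leftys lie far below the other genes, and in TSCs Nodal, Gdf3, Tdgf1 and both Leftys lie below -4.

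Other genes of the pathway were taken from 6 lists holding 56 genes with the 9 described, of which 48 were tested. Of the 39 tested genes outside the 9, 2 were at least 2-fold higher and 1 lower in 2iJ against 2i-L, 4 higher and 8 lower in 2iJ+B-A against 2iJ, and 9 higher and 9 lower in TSCs against 2iJ. In 2iJ+B-A against 2iJ these were 10.3% higher and 20.5% lower, beside 5.81% and 3.17% of all tested genes. The shares were 5.13% and 2.56% in 2iJ against 2i-L, beside 1.23% and 0.918%, and 23.1% in each direction in TSCs, beside 19.4% and 17.6%. The median log2 ratios of the 39 genes were 0.02, -0.01 and 0.11. These lists, and that of the BMP targets below, were chosen with earlier results of these data known. Their shares are therefore a description and no independent check.

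Of 12 further target genes of Nodal/Activin signaling, 9 were tested. In 2iJ+B-A against 2iJ 6 were lower and 1 higher, beside 3.17% and 5.81% of all tested genes. The median log2 ratio of the 9 targets was -1.75. Eomes, a T-box gene of mesendoderm and also of trophoblast, was at 12.4, 10.7, 2.74 and 179 CPM, with -1.78 (-2.07 to -1.503) in 2iJ+B-A against 2iJ and 4.01 (3.86 to 4.16) in TSCs against 2iJ. Eomes is also on the list of TSC markers and was the 1 marker of the 6 found there that was lower in 2iJ+B-A, where 4 were higher.

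Wnt3, a Wnt ligand of the gastrulating embryo, was at 6.71, 11.6, 2.82 and 1.97 CPM, with -1.86 (-2.14 to -1.59) in 2iJ+B-A against 2iJ. Eomes and Wnt3 were low in 2iJ+B-A, as both Leftys were, but differed in TSCs, where Eomes was at its highest. Of the other targets past 2-fold in 2iJ+B-A, T and Fgf8, which were lower, and Sox17, which was higher, stayed under 5 CPM.

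Among 15 Smads, partners and repressors, all tested, 3 were lower and 0 higher in 2iJ+B-A against 2iJ, beside 3.17% and 5.81% of all tested genes. Besides Skil the lower genes were Pmepa1, an inhibitor of Smad2/3 signaling induced by TGF-β, and Tgif2, a homeobox repressor that binds Smads. Pmepa1 was at 21.2, 14.7, 3.46 and 27.6 CPM, with a log2 ratio of -1.94 (-2.19 to -1.68), and Tgif2 at 64.4, 74.1, 34.7 and 79.8 CPM, with -1.08 (-1.18 to -0.99). The signal-transducing Smads were not lower in 2iJ+B-A, with log2 ratios of 0.12 for Smad2, 0.58 for Smad3 and 0.23 for Smad4, and Ski, the relative of Skil, was at -0.21. In TSCs Smurf2, a ubiquitin ligase of the pathway, was called higher (1.05) and Tgif1 lower (-1.56).

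Of 9 receptors and co-receptors, 8 were tested, and 1 was lower (Tdgf1) and 1 higher (Tgfbr2, at 1.40 and 4.66 CPM) in 2iJ+B-A against 2iJ. The shares of all tested genes were 3.17% and 5.81%, and 1 gene in each direction is no result about the list. The type I receptors Acvr1b and Tgfbr1, the latter encoding ALK5 itself, had log2 ratios of -0.01 and 0.21, and the type II receptor Acvr2a of -0.03. Cfc1 (Cryptic), the other co-receptor of the Tdgf1 family, was at 0.632, 2.91, 3.30 and 0.171 CPM. Both co-receptors were thus low in TSCs, whereas only Tdgf1 was called lower in 2iJ+B-A. Of the receptors, Tgfbr1 was also called lower in TSCs against 2iJ (-1.18), while Acvr2a (1.075) and Tgfbr2 (2.44) were called higher.

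Of 11 ligands, 8 were tested. In 2iJ+B-A against 2iJ, 1 was lower (Nodal) and 2 were higher, beside 3.17% and 5.81% of all tested genes. One of the higher ligands was Gdf11, at 3.73 and 8.65 CPM (1.11, interval 0.84 to 1.39). The other was Inhbb, an activin subunit gene that stayed under 5 CPM. Inhba and Gdf1 were not among the tested genes, with at most 9 counts and 0 counts in a sample. In TSCs against 2iJ, Tgfb1 was called higher (2.08), and Tgfb2 was called lower (-3.35) as Nodal and Gdf3 were. Of 7 extracellular antagonists, 6 were tested, and both Leftys were the only ones past 2-fold in 2iJ+B-A, where Fst, Fstl3, Dand5 and Tmeff1 had log2 ratios from -0.83 to 0.79. In TSCs Fstl3, an activin-binding protein, was at 25.6 CPM against 1.31 CPM in 2iJ (3.85), and Fst at 0.114 against 2.53 CPM (-2.31), but the latter had only 4 counts in TSCs. Furin and Pcsk6, convertases that cut the Nodal precursor, had log2 ratios of 0.85 and 0.84 in 2iJ+B-A.

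For contrast, 7 of 8 BMP target genes were at least 2-fold higher in 2iJ+B-A against 2iJ and 0 lower, beside 5.81% and 3.17% of all tested genes. Their median log2 ratio was 2.00. Id1, which encodes an inhibitor of basic helix-loop-helix factors, was at 6.405, 8.01, 91.6 and 24.35 CPM. The direction in 2iJ+B-A was opposite to that of the 5 loop genes called in the same comparison. In 2iJ against 2i-L, where no BMP4 was added, 3 of the 8 (Id2, Id3 and Msx1) were already at least 2-fold higher and 0 lower. The shares of all tested genes there were 1.23% and 0.918%. In TSCs against 2iJ, 3 were higher and 1 lower, beside 19.4% and 17.6% of all tested genes.

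**Figure D3:**
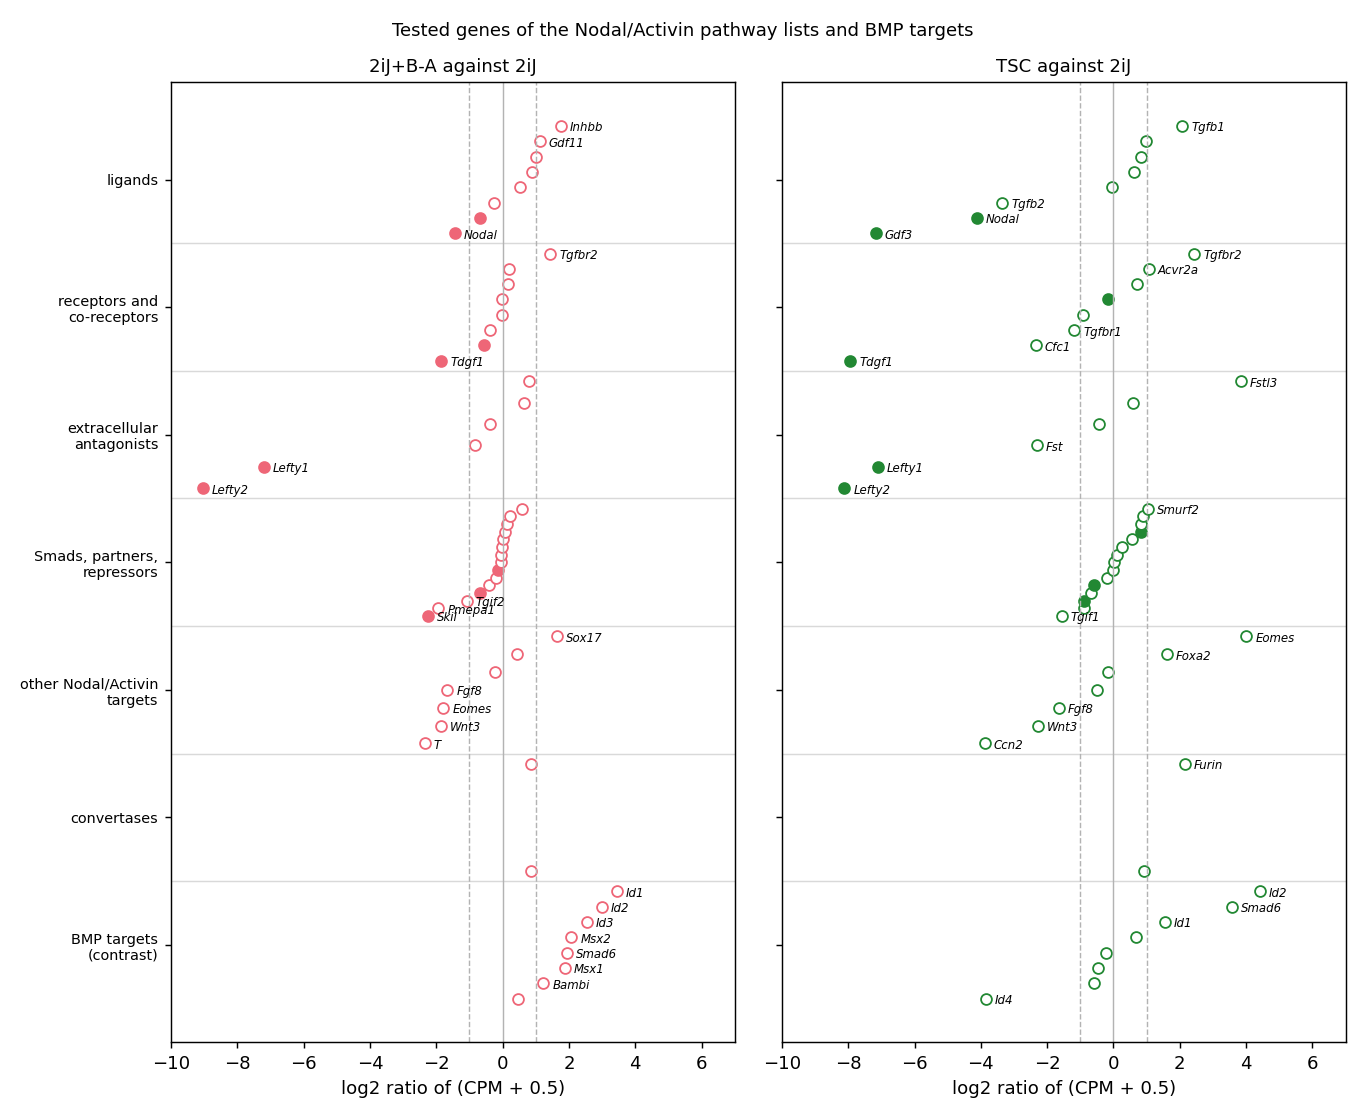
Log2 ratio of (CPM + 0.5) of tested genes of the pathway lists and of the BMP targets, for 2iJ+B-A against 2iJ (left) and TSC against 2iJ (right). Filled points are the 9 genes described, open points are the other genes, dashed lines mark 2-fold, genes past it are named, and the vertical order within a list is by ratio. On the left T, Wnt3, Eomes and Fgf8 lie below -1 and 7 of 8 BMP targets above 1, and on the right Eomes lies above 4.

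Position was not used to choose the genes. Within 100 kb of the starts of the 9 genes there were 36 other tested genes, of which 0 were past 2-fold in 2iJ against 2i-L, 4 in 2iJ+B-A against 2iJ (11.1%) and 16 in TSCs against 2iJ (44.4%). Of all tested genes, 8.97% and 37% were past 2-fold in either direction in the latter comparisons, so the neighbours' shares lay near the background and are no result about the neighbours as a group. Single neighbours are given as a description. Of the 4, Tmem63a starts 7322 bases beyond the Lefty1 start and was at 17.65, 16.0, 5.46 and 20.8 CPM. It had log2 ratios of -1.47 (interval -1.69 to -1.25) in 2iJ+B-A and 0.37 (0.21 to 0.53) in TSCs against 2iJ. Tmem63a was thus low with the Leftys in 2iJ+B-A but not in TSCs.

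A wider window of 500 kb on each side, chosen after these values were seen, held 12 tested genes besides the Leftys. In 2iJ+B-A against 2iJ, 2 were called lower, Tmem63a among them, and 1 gene, 6330403A02Rik, at 0.116 and 1.60 CPM, was called higher. Of all tested genes, 3.17% were at least 2-fold lower and 5.81% higher in that comparison. BC031781 on the Lefty2 side and Ephx1 on the Lefty1 side had log2 ratios of -0.12 and -0.53. In TSCs against 2iJ 4 of the 12 were lower and 0 higher, beside 17.6% and 19.4% of all tested genes.

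**Figure D4:**
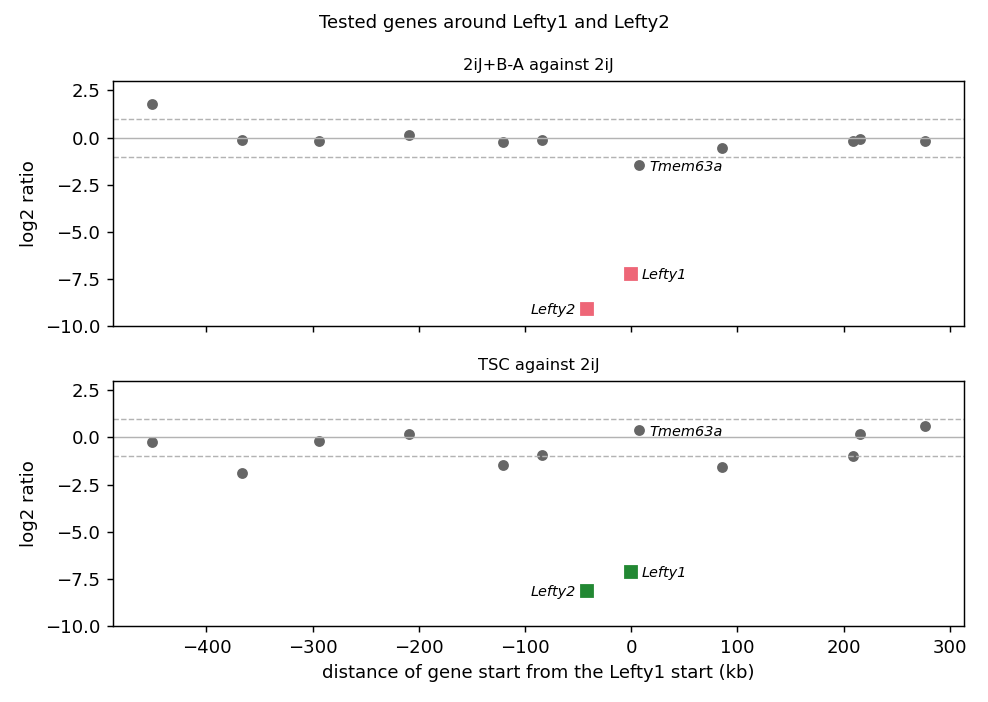
Log2 ratio of (CPM + 0.5) of Lefty1 and Lefty2 (squares) and of tested neighbours (circles), against the distance of each gene's start from the Lefty1 start in kb, for 2iJ+B-A against 2iJ (top) and TSC against 2iJ (bottom). Dashed lines mark 2-fold. In the top panel Tmem63a lies below the lower line, and the other neighbours drawn lie between the lines or above them.

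Another of the 4 genes was Lrrc2, which starts 5387 bases from the start of Tdgf1 on the opposite strand, and was at 33.2, 20.7, 7.99 and 0.541 CPM. Its log2 ratios, -0.67 in 2iJ against 2i-L, -1.32 in 2iJ+B-A and -4.35 in TSCs against 2iJ, had the same signs as the -0.80, -1.85 and -7.94 of Tdgf1. The other tested neighbours of Tdgf1 went the opposite way in TSCs, with Prss50 at 2.33, Als2cl at 2.205 and Tmie at 2.30. In 2iJ+B-A against 2iJ they were within 2-fold. A further one of the 4 genes was RP24-263P17.1, near Smad7 and under 2 CPM in each sample. Around Gdf3 lie the mESC genes Dppa3, 16323 bases from its start, and Nanog, 97402 bases from it. Gdf3, Dppa3 and Nanog had log2 ratios of -0.67, -0.70 and -0.66 in 2iJ+B-A and of -7.17, -6.61 and -7.80 in TSCs against 2iJ. The other tested neighbours of Gdf3 were nearer to 0. Apobec1 was at -0.11 and Gm10224 at -0.002 in 2iJ+B-A, and at -2.535 and -1.03 in TSCs against 2iJ. Nanog has pseudogene copies that could take up or remove reads, so its values are uncertain. Around Nodal (3 tested neighbours), Acvr2b (5), Foxh1 (13) and Skil (1), 0 were past 2-fold in 2iJ+B-A.

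The RefSeq table of promoters, which covers 300 bases mostly upstream of a gene's start in GRCm38.p6, held an entry for 3 of the 9 genes, Tdgf1, Acvr2b and Nodal. Motifs were searched on both strands as AATNNACA for Foxh1 and CAGAC for Smads, and matches of both patterns may overlap. AATNNACA was found in 12.2% and CAGAC in 49.6% of the 32851 promoters of the table. The Tdgf1 promoter held 2 matches to AATNNACA and, between them and without overlap, 1 to CAGAC, that of Acvr2b 0 and 1, and that of Nodal 0 and 0 in this window. The Tdgf1 promoter, at chr9:110946109-110946408 on the minus strand, is shown for this arrangement, with the matches in capitals.

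Tdgf1 promoter: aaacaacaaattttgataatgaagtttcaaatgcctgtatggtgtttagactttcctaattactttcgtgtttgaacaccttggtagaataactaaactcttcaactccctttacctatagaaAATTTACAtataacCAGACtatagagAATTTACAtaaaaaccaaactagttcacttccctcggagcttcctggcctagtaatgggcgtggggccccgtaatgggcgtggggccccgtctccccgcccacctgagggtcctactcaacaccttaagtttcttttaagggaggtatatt

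The genes whose pattern was most like that of Nodal were sought among the 11558 other genes with at least 5 CPM in a sample, by the Euclidean distance over the 3 log2 ratios. The 5 nearest included Runx1t1 (distance 0.273), Nanos3 (0.304), Porcn (0.398) and Nlrp9b (0.49). Among them Porcn, which encodes the acyltransferase that modifies Wnt ligands, was at 30.3, 38.1, 11.95 and 1.28 CPM. For the Leftys summed, the 5 nearest genes included Nphs1 (5.95), Mup6 (6.03), Trh (6.3) and Prdm1 (6.72). These large distances are partly set by level, since the pseudocount of 0.5 CPM limits how low a ratio can go. The Leftys summed were at 392 CPM in 2iJ. A gene far below that level there, such as Trh at 119 CPM, cannot reach their log2 ratios even at 0 CPM. Whether these genes share the pattern of the Leftys was therefore not tested. Nphs1 was at 27.9, 25.2, 1.62 and 0.142 CPM. The value of Mup6 is uncertain, since it belongs to a multigene family of near-identical copies. Of these 4, Trh had the lowest log2 ratio in TSCs, at -7.91, with levels of 81.1, 119, 18.8 and 0 CPM.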

How the data were processed

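RNA-seq counts of 4 samples, 1 per condition, were analysed. The authors trimmed paired reads of 126 bases, mapped them with STAR (2.4.2a in the submitters' processing notes) to NCBIM37 and deposited the whole-number counts of read pairs per gene, without normalization. The annotation release is not given in the sources used here, and gencode vM1 was used for names and positions. The libraries are directional, and the counts of the reverse-strand column entered all comparisons (29.1 to 32.11 times those on the opposite strand). Rows naming no gene, 16.42% to 17.77% of the listed pairs, stayed out of library sizes. TMM factors (0.969 to 1.035) came from edgeR 4.0.16 in R 4.3.3, with size factors of DESeq2 1.42.0 as an alternative. Ratios, intervals and sequence searches used Python 3.11.15, numpy 2.4.6, scipy 1.17.1, pandas 2.3.3, numba 0.67.0 and matplotlib 3.10.9. A gene was tested if any sample reached 1 CPM, and the pseudocount was 0.5 CPM. edgeR's quasi-likelihood test could not be fitted without replicates. Script calculations were tested on simulated data. The genes, the lists and the alternatives were chosen with earlier results of these data known. Genes outside the 9 were named from the lists where past 2-fold with at least 5 CPM in a compared sample, as markers, or as the 5 most alike, and some genes and sequences that the rule takes in are not reported here or drawn. Those named otherwise (list genes within 2-fold or under 5 CPM, and neighbours) were chosen for completeness after their values were seen. Intervals cover counting error only, and reads carry no molecular identifiers.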

Additional observations from a re-analysis of the deposited data

Results flagged for a closer look

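Counts on the strand opposite to a gene were not used in the comparisons. More than 3 counts were present there for 8 of the 9 genes in at least 1 sample. The largest such count in any sample was 141 for Lefty2, 57 for Tdgf1, 25 for Lefty1, 24 for Skil, 14 for Smad7, 9 for Gdf3, 7 for Nodal and 4 for Foxh1. For Lefty2 the opposite strand held 0.977% of the counts of both strands in 2i-L and 1.0% in 2iJ, with 0 counts on either strand in 2iJ+B-A. In TSCs it held 2 counts against 16 on the strand of the gene. Over all genes, the strand used held 29.1 to 32.11 times the counts of the opposite strand. That is a larger opposite-strand share than that of Lefty2 in 2i-L and 2iJ. Whether the opposite-strand counts of the 9 genes reflect antisense transcription was not tested.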

How the results depend on the processing

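No paired analysis was possible because each condition has 1 sample. Likewise no sample could be left out. Under unstranded counts, DESeq2 size factors, total counts without TMM and pseudocounts of 0.1 and 1 CPM, 0 of the 9 genes changed sign or lost or gained a call in any of the 3 comparisons. With 1.5-fold as the threshold, 2 genes in place of 0 were lower in 2iJ against 2i-L (Tdgf1 and Lefty2), and 1 in place of 0 was higher in TSCs against 2iJ (Smad7). At that threshold 7 genes in place of 5 were lower in 2iJ+B-A against 2iJ, and likewise 7 in place of 5 in TSCs against 2iJ. The share of all tested genes past 1.5-fold was not calculated. With the Leftys summed, 4 of 8 genes were called lower in 2iJ+B-A and 4 in TSCs. With 2i-L as the reference, 4 of the 9 were lower in 2iJ+B-A, Nodal being lost, and 5 in TSCs. The shares of all tested genes past 2-fold with that reference were not calculated. With no filter on low values, the share of all genes at least 2-fold higher and lower was 0.77% and 0.567% in 2iJ against 2i-L, 3.6% and 2.01% in 2iJ+B-A against 2iJ, and 12.2% and 11.3% in TSCs against 2iJ, because more genes with few counts were included. Depth limits Lefty1 and Lefty2 in 2iJ+B-A and TSCs, and Gdf3 and Tdgf1 in TSCs, where the log2 ratios moved by up to 2.32 with the pseudocount.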
